A study of Mus musculus with 1 sample.

Results

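The 41 genes described here encode nuclear hormone receptors, ligand-activated or orphan transcription factors of the subfamilies NR1, NR2, NR3, NR5, NR6 and NR0. They were chosen by name, as a set of nuclear receptors that leaves out the corticosteroid receptors and the Nr4a group, and each had exactly 1 row among the 23282 rows of the deposited table. The library came from mixed glia cultured from the ventral midbrain of outbred ICR (CD-1) pups at postnatal day 5, expanded in medium with fetal bovine serum. It is labelled as the control and received the vehicle DMSO, while the study's contrast was an inhibitor of serum- and glucocorticoid-regulated kinase 1 (SGK1). The labels mention toxins in the treatment scheme without saying whether the control received any, and they do not say how many pups were pooled. Only this 1 library was analysed here, so there is no replicate, no value carries an error between cultures and no difference could be tested.

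Nuclear receptors share a DNA-binding region built of a pair of zinc fingers and a ligand-binding region that closes around a small lipophilic molecule such as a hormone, vitamin derivative, fatty acid or sterol. Many NR1 receptors bind DNA as a pair with a retinoid X receptor (RXR), recruit corepressors when empty and exchange them for coactivators when ligand arrives. Others bind alone or as pairs of the same protein, and several have no known natural ligand. In glia, members of the family are known for control of cholesterol efflux, of maturation and of inflammatory gene expression.

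The 6 codons known as the P-box, at the base of the first zinc finger, hold the residues that read the core of the DNA element. The following lines give, 5′ to 3′, the coding stretch of 69 bases from the first zinc-binding cysteine codon to the end of the P-box, for 4 of the highest receptors, which share a P-box class, and for 1 member of each of 5 other classes, to show how the P-box differs between them. Capitals mark the 18 bases of the P-box. The sequences were read from GENCODE release M21 transcripts.
Nr1h2: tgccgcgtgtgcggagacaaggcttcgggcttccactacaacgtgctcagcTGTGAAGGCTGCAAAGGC
Thra: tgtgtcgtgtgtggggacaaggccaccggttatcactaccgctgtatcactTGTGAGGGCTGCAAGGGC
Rara: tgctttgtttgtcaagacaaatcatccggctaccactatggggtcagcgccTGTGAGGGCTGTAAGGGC
Rxra: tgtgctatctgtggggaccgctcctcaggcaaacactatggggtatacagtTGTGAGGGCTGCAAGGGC
Nr2f2: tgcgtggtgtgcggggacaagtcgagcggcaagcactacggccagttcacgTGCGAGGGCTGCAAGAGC
Esrra: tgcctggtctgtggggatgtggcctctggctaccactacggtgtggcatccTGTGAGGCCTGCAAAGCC
Hnf4g: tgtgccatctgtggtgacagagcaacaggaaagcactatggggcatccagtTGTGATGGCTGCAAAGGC
Nr2e1: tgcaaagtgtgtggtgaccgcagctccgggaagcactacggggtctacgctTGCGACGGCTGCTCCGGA
Esr1: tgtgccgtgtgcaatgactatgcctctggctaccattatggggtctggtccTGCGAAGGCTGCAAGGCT

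Of the 41 genes, 39 encoded a zinc-finger region, and Nr0b1 and Nr0b2, which are known to lack it, did not match its signature. The encoded P-boxes fell into 9 classes. The class of Nr1h2, Thra, Rara and Rxra was encoded by 24 members, with codons that were the same in some, such as Thra and Rxra, and differed in others, and these held 88.0% of the summed RNA level of the family. The class of the 3 COUP-TF genes held 7.73%, that of the 3 estrogen-related receptors 2.43% and that of the 2 HNF4 genes 1.46%. The estrogen receptor class held 0.0650%. The class of Nr5a1 and Nr5a2 had no RNA listed.

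Values and levels are distinguished below. The value is the deposited number for a gene, a normalised read count. The level is the value per kilobase of annotated exon and per 1000000 of the sum of all values (27569507), and receptors are compared with one another by level. Genes of the pathway and marker lists are named by their values, which are not divided by length and give no order per length. Detection was set at a value of at least 10. By this minimum 28 of the 41 receptors were detected (68.3%), beside 67.2% of all rows and 70.6% of the protein-coding rows. A value of 100 or more was reached by 22 receptors (53.7%, against 51.6% of all rows and 56.1% of the protein-coding rows). Values of 1000 or more were found for 5 receptors (12.2%, against 21.5% of all rows), and 5 were listed at 0 (12.2%, against 21.8% of all rows and 19.8% of the protein-coding rows). The family was thus detected about as often as genes at large and reached high values less often, which is a description without a test.

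Levels of the receptors were moderate to low. The median value was 199 for the 41 receptors, or 7.22 per 1000000 of the sum, beside 119 for all rows and 181 for the protein-coding rows. Among detected genes the median value was 354 for receptors and 469 for all rows. Only 8 receptors (19.5%) had a level above 3.72, the median level of the detected genes, against 33.8% of all rows with an exon length. These were Nr1h2, Thra, Rara, Rxra, Rarb, Nr1d1, Rxrb and Nr2f6. Just under that median were Nr2f2 at 3.44, Nr1h3 at 3.40 and Esrra at 3.37. All 41 receptors together held 17895, or 0.0649% of the sum, and the 5 highest accounted for 62.6% of the summed level.

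**Figure D1:**
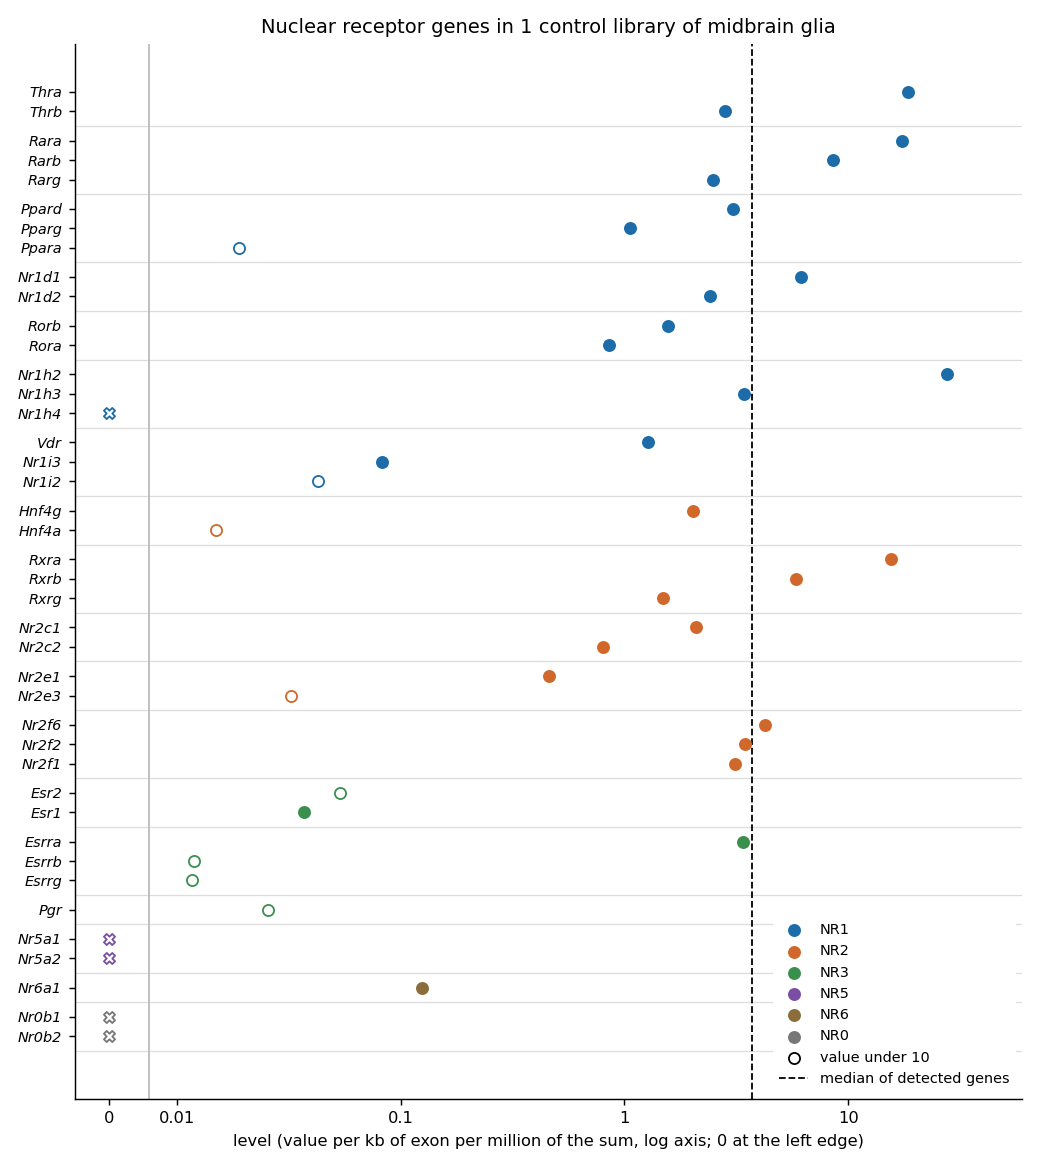
Level of each of the 41 receptor genes in the control library, grouped by close relatives, on a log axis in value per kilobase of exon per 1000000 of the sum. Filled circles mark detected receptors (value of at least 10), open circles lower values, crosses are listed at 0, and the dashed line is the median level of detected genes (3.72), which 8 receptors exceed.

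The RXRs, the shared partners of many NR1 receptors, were all detected. Rxra had a value of 2334 (chromosome 2, 27676440 to 27762957, plus strand, GRCm38), Rxrb 637 and Rxrg 94. Per length, Rxra was at 15.5, above 80.0% of detected genes, 2.67 times Rxrb at 5.82 and 10.4 times Rxrg at 1.48. Rxra therefore led the group, with 68.0% of its summed level. The 3 RXRs summed to a level of 22.8. The NR1 receptors known to pair with RXR were taken as the thyroid hormone receptors, retinoic acid receptors, PPARs, LXRs, FXR, VDR, PXR and CAR. These 14 receptors summed to 86.4, or 3.79 times as much as the RXRs. RNA levels do not give protein amounts. Partners of RXR outside NR1, such as the Nr4a receptors, are not in this sum.

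The retinoic acid receptors, which bind all-trans retinoic acid and act in patterning and differentiation, formed one of the highest groups. Rara had a value of 2092 (chromosome 11, 98927818 to 98974942, plus strand), Rarb 1242 and Rarg 291. The levels were 17.4 for Rara, 8.56 for Rarb and 2.48 for Rarg, so all 3 subtypes were present and the group held 20.3% of the family's summed level. Exons of Rarb share 1793 bases with Top2b on the opposite strand, which had a value of 2708. That shared stretch is 34.1% of the Rarb exons.

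Genes that make, carry and break down retinoids were detected in 10 of 12 cases, and their median value was 155. Dhrs3, which returns retinaldehyde to retinol, had a value of 7814, and the retinoic acid binding protein gene Crabp1 had 1403. Cyp26c1, encoding a retinoic acid hydroxylase, was listed at 0. Of 7 known retinoid-responsive genes, which include Rarb and Dhrs3 themselves, 6 were detected, among them Tgm2 (tissue transglutaminase) at 4192.

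The thyroid hormone receptors were represented mainly by Thra. Its value was 2359 (chromosome 11, 98740638 to 98769006, plus strand), and that of Thrb was 576. The level of Thra was 18.5, above 82.8% of detected genes, and that of Thrb was 2.82, below the median. The ratio of 6.57 became 10.4 with the longest annotated transcript as length and 4.10 with no division by length, so its direction did not depend on the length used. Thra gives rise to a receptor and to a splice form that does not bind hormone, and a value per gene does not separate them. Thyroid hormone handling genes were detected in 4 of 6 cases. Crym, encoding a cytosolic thyroid hormone binding protein, was at a value of 1427, and Dio2, encoding the activating deiodinase, at 271. Dio3, encoding the inactivating deiodinase, was listed at 0. Among 6 known thyroid hormone targets 5 were detected, with values of 10966 for Mbp, 690 for Hr and 336 for Klf9.

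Nr1h2, encoding the oxysterol receptor LXRβ, was the highest receptor of the family. Its value was 2558 (chromosome 7, 44549616 to 44553951, minus strand) and its level 27.7, above 88.0% of detected genes. Nr1h3, which encodes LXRα, the form known for high expression in macrophages and liver, had a value of 236 and a level of 3.40. Nr1h2 was thus 8.13 times as high per length, and 10.8 times with the longest transcript as length. Nr1h4, encoding the bile acid receptor FXR, was listed at 0. The 8 known LXR targets on the list were all detected, with a median value of 1647.5. All had levels above 3.72, the median of detected genes, the lowest at 3.90. Such a level was found for 33.8% of all rows with an exon length. It was also found for 7 of 8 targets of the estrogen-related receptors, 7 of 10 PPAR targets and 1 of 6 thyroid hormone targets. Apoe, the lipoprotein with the highest value of the whole table, was at 1010177, the cholesterol exporter gene Abca1 at 5532 and the desaturase gene Scd2 at 4664. Of the 5 oxysterol handling genes 4 were detected. Ch25h, encoding cholesterol 25-hydroxylase, was at 1773, Cyp46a1 at 406 and Cyp27a1 at 177, while the sulfotransferase gene Sult2b1 was listed at 0.

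The PPARs, sensors of fatty acids and their derivatives, differed widely. Ppard, the broadly expressed form, had a value of 636 and a level of 3.07. Pparg, the form central to adipocytes and found in macrophages, had 86 and 1.06. Ppara, which drives fatty acid oxidation in liver, had a value of 2 and was not detected. All 8 genes of the fatty acid handling list were detected, with Fabp5 at a value of 28024, the phospholipid transfer protein gene Pltp at 5529 and Fabp7, a radial glia and astrocyte fatty acid binding protein, at 3322. Known PPAR targets were detected in 9 of 10 cases. The lipid droplet gene Plin2 was at 12268 and the carnitine palmitoyltransferase gene Cpt1a at 3579, and Cyp4a14 was listed at 0.

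The clock receptors were all detected. Nr1d1 (REV-ERBα), a repressor in the circadian feedback loop, had a value of 519 and a level of 6.12, 2.55 times that of Nr1d2 (REV-ERBβ), which had a value of 358 and a level of 2.40. The RORs, activators that bind the same elements, were lower. Rorb had a value of 479 and a level of 1.57, and Rora a value of 307 and a level of 0.852. The 12 clock partners and targets were all detected with a median value of 692.5, and the largest values were 2570 for Bhlhe41, 1370 for Dbp and 1362 for Bhlhe40. A bulk culture at 1 time point gives no phase, and the time of harvest is not given in the sources used here.

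Among the receptors for vitamin D and foreign compounds, Vdr had a value of 199 and a level of 1.28, above 28.3% of detected genes. Nr1i3 (CAR) was at the detection minimum with a value of 10, and Nr1i2 (PXR) had 3. For Nr1i3, 74.9% of the exon bases are shared with Tomm40l on the opposite strand, which had a value of 515. The vitamin D list had 1 detected gene of 4, Cyp2r1 at a value of 12, and Cyp24a1, the best known VDR target, was at 1. Cyp27b1, encoding the activating hydroxylase, and Gc were listed at 0. Of 6 known PXR and CAR targets 1 was detected, the drug exporter gene Abcb1a at 105, and Cyp3a11 and Cyp3a13 were listed at 0.

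Within the remaining NR2 genes the COUP-TFs, orphan receptors with roles in neural and mesenchymal development, were all detected and close to one another. Values were 819 for Nr2f2 (chromosome 7, 70351944 to 70366735, minus strand), 438 for Nr2f1 and 350 for Nr2f6. The levels were 3.44, 3.12 and 4.26 in the same order. Nr2f6 led per exon union, but Nr2f2 led with the longest transcript as length (7.04 against 5.72 for Nr2f6) and in the values, so the order within this group depended on the length used. Of the Nr2f6 exon bases, 54.4% are shared with Ocel1 on the opposite strand, which had a value of 664.

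The testicular receptor genes, broadly expressed orphans despite their name, were at values of 266 for Nr2c1 and 331 for Nr2c2. Per length Nr2c1 was higher (2.09 against 0.804), an order that reversed in the values. Exons of Nr2c2 share 4590 bases, 30.7% of its length, with Mrps25 on the opposite strand, which was at 2749. Nr2e1 (TLX), which maintains neural stem cells, had a value of 47 and a level of 0.459. Nr2e3, a photoreceptor gene, had a value of 3.

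The HNF4 genes, liver and gut regulators of metabolism, differed from each other. Hnf4a, the liver and intestine form, had a value of 2, while Hnf4g, usually described in intestine and pancreas, had a value of 147 (chromosome 3, 3508030 to 3658052, plus strand) and a level of 2.03. Hnf4g thus lay above 36.7% of detected genes. Its exons overlap no other annotated gene, and no run of 50 bases of its transcripts occurred in a transcript of another gene. Whether the reads cover its whole length cannot be told from a value per gene.

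The steroid and steroid-like receptors of NR3 were mostly under the minimum. Esr1, encoding estrogen receptor α, had a value of 14, Esr2 had 5 and the progesterone receptor gene Pgr had 6. The levels were 0.0372 for Esr1 and 0.0538 for Esr2, and their order changed with the length used. Esrra, an orphan regulator of mitochondrial genes, had a value of 408 and a level of 3.37, whereas Esrrb and Esrrg had 2 each. Of 6 estrogen handling genes with a row 4 were detected. The largest values were those of Hsd17b4 at 5406, which acts mainly in peroxisomal fatty acid oxidation, and Hsd17b12 at 3208, which acts in fatty acid elongation. Cyp19a1, encoding the estrogen-forming aromatase, was at 49, and Hsd17b2 and Sult1e1 were listed at 0. The 8 mitochondrial genes known as ERR and PGC1 targets were all detected, with Atp5b at 30348, Sdhb at 4771 and Cycs at 4174. Of these, 7 reached 100, and Ckmt1 was near the minimum at 11.

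The members of NR5, NR0 and NR6 made up the rest. Nr5a1 (SF1), Nr5a2 (LRH1), Nr0b1 (DAX1) and Nr0b2 (SHP) were listed at 0, and Nr6a1 (GCNF), an embryonic and germ cell receptor, had a value of 37 and a level of 0.124. Steroid synthesis genes known as SF1 targets were detected in 1 of 5 cases, Star at 26. Cyp21a1 was at 2, and Cyp11a1, Cyp17a1 and Hsd3b1 were listed at 0.

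**Figure D2:**
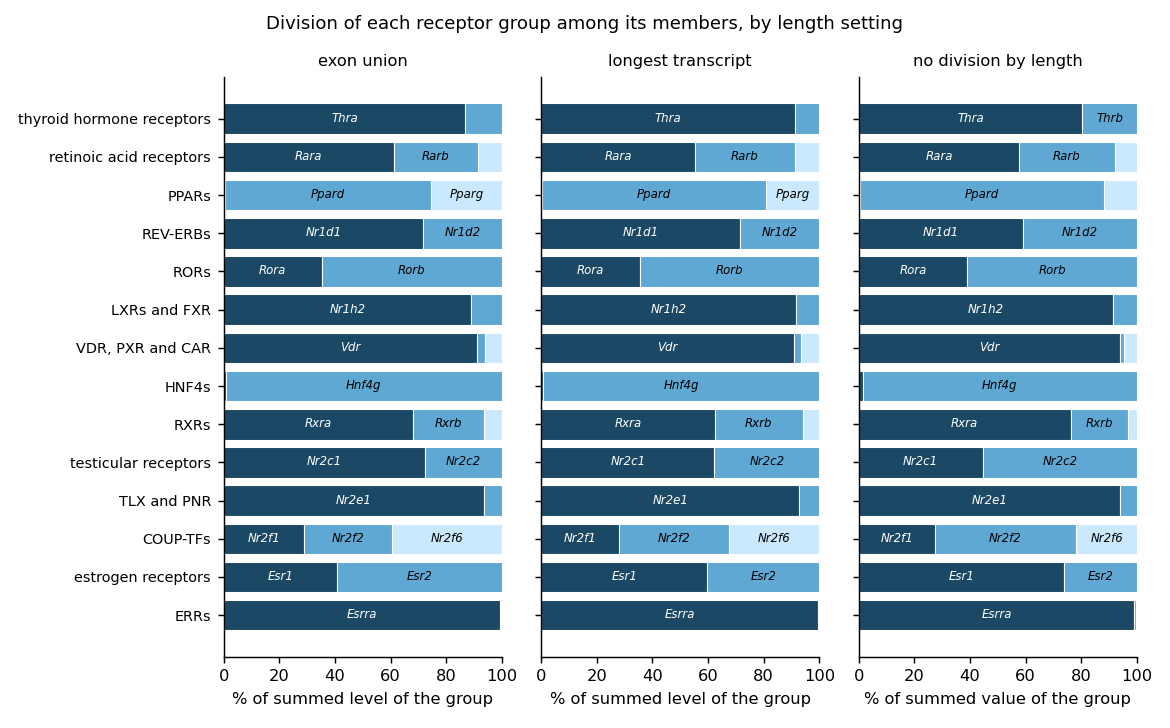
Share of each member in the summed level or value of its group (percent), for 14 groups with more than 1 member and at least 1 detected, with exon union, longest transcript or no length as divisor. The leading member is the same in all 3 panels except in the COUP-TFs, estrogen receptors and testicular receptors.

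By subfamily, NR1 held 69.5% of the summed level with 15 of 18 members detected. NR2 held 27.9% with 10 of 12 detected, and NR3 held 2.51% with 2 of 6. Within the 14 groups that had more than 1 member and at least 1 detected, the leading member was the same under all length settings in 11 groups. In the LXRs, the ERRs, the HNF4s and the vitamin D group the leader held 89.0%, 99.3%, 99.3% and 91.1% of its group's level. The lowest leader shares were 39.3% in the COUP-TFs, 59.2% in the estrogen receptors and 61.2% in the retinoic acid receptors. The values of the estrogen receptors were near or under the minimum. Groups of 2 and of 3 members cannot be ranked for evenness by this share. Rara was 7.02 times Rarg per length, whereas Rorb was 1.84 times Rora. As the cultures are a mixture, fewer cells of a type and less RNA per cell cannot be told apart for any of these genes.

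Receptors with near-identical zinc fingers did not have to share a level. For the 39 members with the region, identity over 66 residues was computed from the translated transcripts. It ran from 57.6% to 98.5% within groups and reached 72.7% between groups, and the closest relative lay in the same group for 37 members. Nr2f1 and Nr2f2 were 98.5% identical and had levels of 3.12 and 3.44. Esrra and Esrrg were 90.9% identical, with levels of 3.37 and 0.0117, and Hnf4a and Hnf4g were 93.9% identical, with 0.0150 and 2.03. The median absolute difference to the closest relative was 2.08 on the log2(level + 0.1) scale, beside 2.85 over all 741 pairs of members. It depended on the settings, at 1.07 with a pseudocount of 1, beside 1.34 over all pairs on that scale. With whole-protein identity it was 1.28, but that identity was a share of the shorter protein. The long Pgr (926 residues) then came closest for some members, such as Nr1i3 (52.0%, against 47.5% for Nr1i2). The 1.28 therefore does not rest on close relatives throughout. The pairs share members and are not independent, so this is a description.

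**Figure D3:**
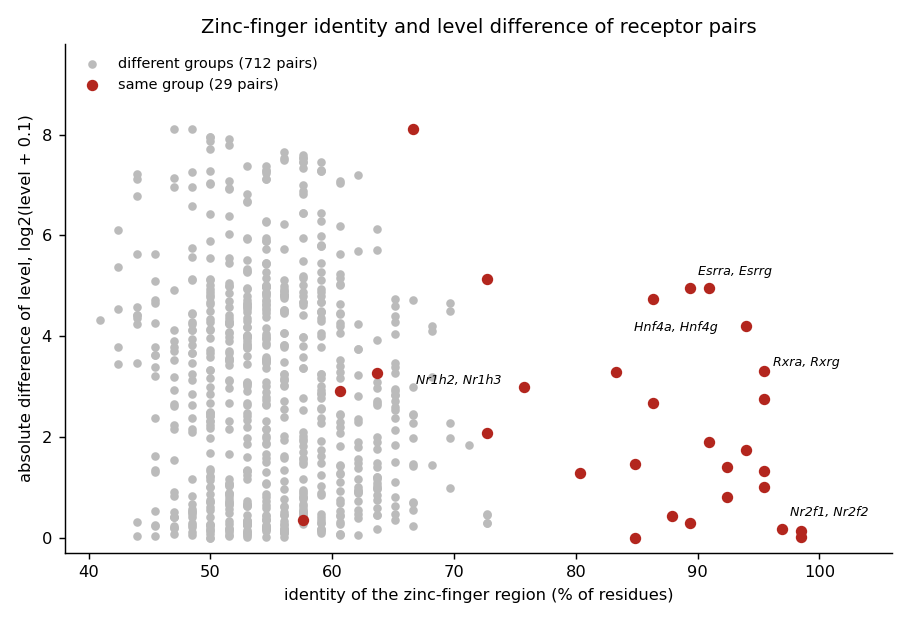
Identity of the zinc-finger region (percent of residues) against the absolute difference of level on the log2(level + 0.1) scale for 741 pairs of receptors. Red points are pairs of the same group and grey points pairs of different groups; same-group pairs at over 90% identity range from 0.00401 (Esrrb and Esrrg, both under the minimum) to 4.96 (Esrra and Esrrg), with Nr2f1 and Nr2f2 at 0.14.

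Promoter windows were compared in CpG content between receptors with values of at least 100 and those under 10. The RefSeq table (GRCm38.p6) held windows for 38 of the 41 receptors, from 250 bases before to 50 bases after a start. Thra, Hnf4g and Nr5a1 had none. Where a gene had several starts, the one farthest upstream was used. The following lines show the 150 bases before that start for 3 of the highest receptors, for Nr2f2, which went against the pattern, and for 2 receptors with no or almost no RNA, 5′ to 3′ on the strand of the gene, with every CG in capitals.
Nr1h2 (chr7:44553966-44554115, minus strand): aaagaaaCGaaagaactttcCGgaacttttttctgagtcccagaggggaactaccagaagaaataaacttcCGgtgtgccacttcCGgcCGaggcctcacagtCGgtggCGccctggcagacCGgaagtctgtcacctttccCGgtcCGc
Rxra (chr2:27677051-27677200, plus strand): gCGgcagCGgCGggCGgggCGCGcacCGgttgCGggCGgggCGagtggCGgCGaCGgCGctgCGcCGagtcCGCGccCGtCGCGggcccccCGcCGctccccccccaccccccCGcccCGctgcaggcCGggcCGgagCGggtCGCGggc
Rara (chr11:98937546-98937695, plus strand): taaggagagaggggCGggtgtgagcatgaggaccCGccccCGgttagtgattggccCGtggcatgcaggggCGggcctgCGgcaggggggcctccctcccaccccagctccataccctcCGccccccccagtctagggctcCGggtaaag
Nr2f2 (chr7:70366747-70366896, minus strand): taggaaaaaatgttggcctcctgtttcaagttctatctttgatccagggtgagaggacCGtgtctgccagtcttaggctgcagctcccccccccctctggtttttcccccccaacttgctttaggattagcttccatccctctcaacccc
Nr1i2 (chr16:38294825-38294974, minus strand): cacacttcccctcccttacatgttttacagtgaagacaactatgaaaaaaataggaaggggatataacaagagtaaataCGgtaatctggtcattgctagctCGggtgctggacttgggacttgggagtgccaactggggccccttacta
Nr0b2 (chr4:133553226-133553375, plus strand): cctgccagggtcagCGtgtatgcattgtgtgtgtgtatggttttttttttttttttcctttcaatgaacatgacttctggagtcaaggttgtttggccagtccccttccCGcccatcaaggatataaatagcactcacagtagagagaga

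The stretches shown hold 30 CG pairs for Rxra, 10 for Nr1h2 and 8 for Rara, against 2 each for Nr1i2 and Nr0b2 and 1 for Nr2f2. Over the whole 300-base windows, the median observed over expected CpG was 0.749 for the 20 receptors with a value of 100 or more and 0.346 for the 12 under 10. All genes of the table showed the same kind of difference, with medians of 0.772 for 9085 genes at 100 or more and 0.203 for 5604 genes under 10. A ratio of 0.6 or more was found for 14 of the 20 receptors (70%) and for 2 of the 12 (16.7%), near the shares of all genes at 100 or more (73.5%) and under 10 (11.0%). The 2 exceptions with little RNA were Ppara (0.736) and Esrrg (0.707). Among receptors at 100 or more the lowest ratios were 0.109 for Nr2f2, 0.277 for Nr1h3 and 0.335 for Rarg. The table held 1 window for Nr2f2 and 2 each for Nr1h3 and Rarg, and which start was used in the culture cannot be read from values per gene.

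**Figure D4:**
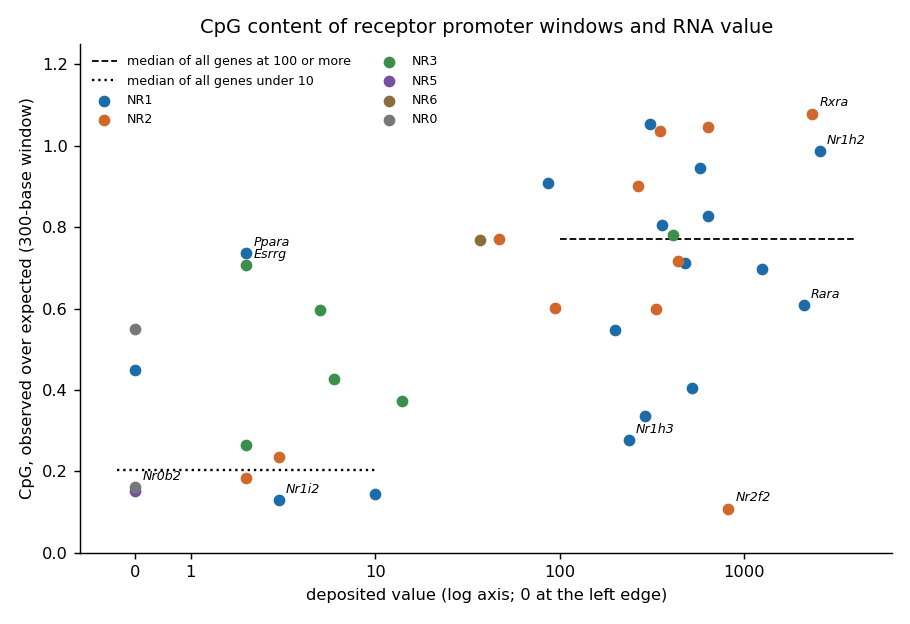
Observed over expected CpG of the promoter window against the deposited value (log axis, 0 at the left edge) for 38 receptors, coloured by subfamily. Dashed and dotted lines are the medians of all genes at 100 or more (0.772) and under 10 (0.203), and Nr2f2 lies at 0.109 despite a value of 819.

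Letters of known response elements were counted in the same windows on both strands. The core AGGTCA, bound by many nuclear receptors, occurred in 7 of 38 receptor windows (18.4%), those of Thrb, Rarg, Pparg, Nr1d2, Nr1h4, Nr5a2 and Nr0b1, beside 14.3% of 17217 windows of all genes. The E-box CACGTG, bound by clock factors, occurred in 4 windows (10.5%, against 8.19%), those of Rara, Nr1i3, Esr2 and Nr0b2. The GC box GGGCGG occurred in 18 windows (47.4%, against 46.8%). None of the 3 motifs contains another, and a match is not a bound site.

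Coregulators of the receptors were detected throughout. All 10 coactivators had a value of 100 or more, with a median value of 1216, and the largest values, not divided by length, were those of Ncoa3 (2865), Crebbp (2338) and Ep300 (2058). All 9 corepressor genes were detected, with a median value of 1111. The corepressor gene Ncor1 was at 4834 and Gps2, encoding a subunit of its complex, at 4312. The median level was 4.95 for coactivators and 4.53 for corepressors, beside 1.28 for the 41 receptors and 2.65 for the detected receptors only. Over all lists, 92 of 112 coregulator, ligand handling and target genes with a row were detected, beside 70.6% of the protein-coding rows. That share also stands beside the detection counts of the single lists above. The lists were chosen with earlier results of these data known, so the counts are a description.

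**Figure D5:**
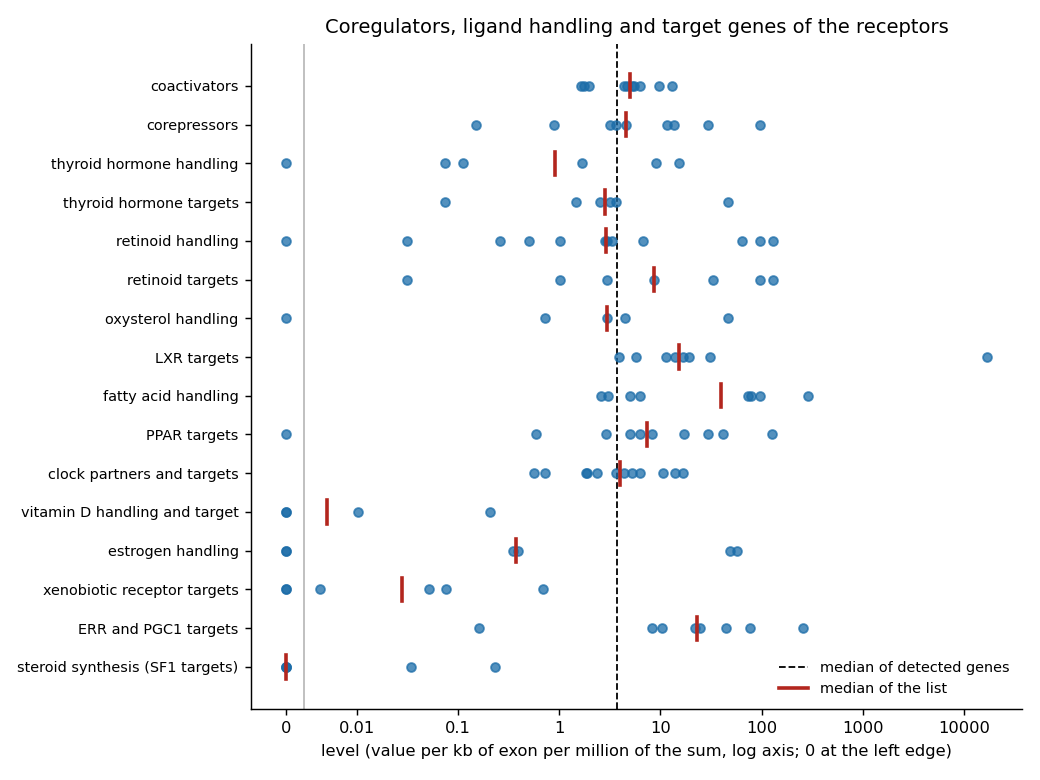
Level of each gene of 16 lists of coregulators, ligand handling and target genes (points, log axis, 0 at the left edge) with the median of each list in red and the median level of detected genes dashed. All 8 LXR targets and 7 of 8 ERR and PGC1 targets lie right of the dashed line, while the vitamin D, xenobiotic and steroid synthesis lists lie left of it.

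Reads of some receptors can be shared with other genes, since the strand setting of the counting is not stated. Thra and Nr1d1 lie tail to tail on opposite strands of chromosome 11 and share 263 exon bases, 5.70% of Thra and 8.55% of Nr1d1. Overlaps of more than 30% of the exon bases affected Rarb, Nr1i3, Nr2c2 and Nr2f6. Elsewhere in the genome, 25 of the 41 receptors had no run of 50 bases in common with transcripts of another gene, and in the other 16 at most 5.41% of the runs were shared. Nr2f1 and Nr2f2 had 10 such runs in common.

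The label of glial cells was checked against markers. A value of at least 10 was reached by 70.6% of the protein-coding rows. All 10 microglia genes were detected (lowest Tmem119 at 984), as were all 10 astrocyte genes (Gfap at 17222, lowest Fgfr3 at 484). All 8 mesenchymal genes were also detected, from Lum at 455 to Fn1 at 95749, as were all 8 of the oligodendrocyte lineage (lowest Sox10 at 48), and all 5 ependymal genes, from Tmem212 at 14 to Cfap126 at 3173. Of the neuron genes 6 of 8 were detected, with Stmn2 at 3802 and Slc17a6 listed at 0. Their median value was 53, and 3 reached 100. Of the endothelial genes 5 of 7 were detected, with Tek listed at 0 and a median value of 36. Flt1 at 2427 was the only 1 of them at 100 or more. Which of these cells carried each receptor was not tested.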

How the data were processed

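RNA of 1 control culture was sequenced after Trizol extraction and a SMARTer mRNA library. Per the study's methods, reads were trimmed at a quality score of 20 and aligned with STAR (GRCm38/mm10), and HTSeq-count counted those on exons of NCBI RefSeq genes. The submitters' processing notes instead name TopHat and edgeR, with mm10 and no versions. The authors called their values normalised read counts without giving the normalisation, and also calculated FPKM. The deposited column is not labelled as FPKM and was taken as not divided by length; if it was, the levels here would be divided by length a second time. All deposited values were whole, and they were handled as a score rather than as raw counts, so no count model, counting interval or counting-error limit was used, and the depth in reads is unknown.

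Exon unions came from GENCODE M21 (GRCm38), matched by symbol or older symbol for 98.4% of rows; this is not the annotation the authors counted on. Levels were values divided by exon kilobases and by the sum in units of 1000000. Had the authors scaled the library as a whole, ratios between genes would be unaffected; scaling per gene would alter them. The longest open reading frame of each receptor was translated, the zinc-finger region was found by its signature of cysteines and aligned globally. The functions for exon unions and overlaps, levels per length, and CpG and motif counts were tested on simulated data. Those for translation, the zinc-finger signature and alignment were not. Python 3.11.15, numpy 2.4.6 and matplotlib 3.10.9 were used.

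All 41 receptors are named. Of each pathway list the 3 highest genes by value and those at 0 are named, and of each marker list the highest and lowest, except for some genes that are not reported here. The receptors and the lists were chosen with earlier results of these data known.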

Additional observations from a re-analysis of the deposited data

How the results depend on the processing

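Of 20 alternatives, 10 moved a summary value, with some change in a count allowed. A reversal was defined only for the promoter CpG difference, whose sign stayed the same. Orders within groups that changed are given with those groups. The number of detected receptors was 36, 32 and 22 at minima of 1, 3 and 100. The median value per 1000000 of the sum moved from 7.22 to 7.39 without the ribosomal precursor Rn45s, to 8.34 without the 10 highest rows and to 12.8 with detected receptors only. The number of receptors above the median level was 11 with the longest transcript as length or with no length, 9 without bases shared with other genes (chosen after seeing the data) and 21 against the median of all rows with a length, which is lower because it includes undetected genes. The leading member was the same in 12 of 14 groups with the longest transcript and in 11 with no length. The NR2 share was 24.9% with the longest transcript and 30.6% with no length. The difference of median CpG between receptors at 100 or more and under 10 was 0.403. It was 0.397 with a minimum of 10 for the higher set, and 0.330 with each gene's window of highest CpG, also chosen after seeing the data. The median log2 difference of closest relatives was 1.07 with a pseudocount of 1, beside 1.34 over all pairs on that scale. It was 1.28 when chosen by whole-protein identity, which picked the long Pgr for some members. At a minimum of 100, 79 of the 112 pathway genes remained detected, beside 56.1% of the protein-coding rows. No paired analysis was possible because there is 1 library. The missing replicate limits every value to this library.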
